A study of Homo sapiens with 4 samples.

Results

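The genes described here are the nuclear genes of the mitochondrial respiratory chain and of ATP synthase. They were taken by symbol from the 26255 gene symbols of the series: symbols that begin with NDUFA, NDUFB, NDUFC, NDUFS, NDUFV, UQCR, COX4I, COX5, COX6, COX7, COX8 or ATP5, plus SDHA, SDHB, SDHC, SDHD and CYC1, without NDUFAF symbols, pseudogenes and antisense symbols. The rule found 90 genes, of which 38 belong to complex I, 4 to complex II, 10 to complex III, 19 to complex IV and 19 to complex V, the ATP synthase. NDUFA4 and its paralogue NDUFA4L2 are counted with complex IV, where the NDUFA4 protein is now placed. Structural subunits account for 83 of the 90 symbols. The other 7 are ATP5S, ATP5SL, COX7A2L, UQCRHL, ATP5L2 and the read-through symbols ATP5J2-PTCD1 and NDUFC2-KCTD14.

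The series holds RNA-seq of 2 human cell lines from pancreatic tumours, MIA PaCa-2 and PSN-1, and its stated aim was to look for mRNAs targeted by the microRNA miR-4800-3p. The groups are MIA PaCa-2 with miR-4800-3p mimics, MIA PaCa-2 with a scramble oligonucleotide, PSN-1 with miR-4800-3p mimics and PSN-1 with the scramble oligonucleotide, with 1 library in each. There is no replicate inside a line, so that the treatment was repeated only across lines. Levels are FPKM, fragments scaled to transcript length and library total, which allow genes of different length to be set side by side.

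Electrons from NADH enter the respiratory chain at complex I and those from succinate at complex II. They pass by way of ubiquinone to complex III, then by cytochrome c to complex IV, which reduces oxygen to water, and complexes I, III and IV pump protons across the inner mitochondrial membrane. ATP synthase lets the protons return through its membrane rotor, the c-ring, and uses the rotation to make ATP in its F1 head. Most subunits are encoded in the nucleus and the remainder in the mitochondrial genome. Genes of the mitochondrial genome were not analysed here.

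The mimic and the seed matches searched for are given first. The mature sequence is from RefSeq (GRCh38.p14, chromosome 4, 2250091 to 2250109, minus strand), with the seed, bases 2 to 8, in capitals.
hsa-miR-4800-3p: cAUCCGUCcgucuguccac
The sites searched were GACGGAT, which pairs with the whole seed, GACGGATA, which adds an A opposite base 1, and ACGGATA, which pairs with bases 2 to 7 and has the same A. Shorter matches and pairing outside the seed were not searched. In GENCODE 29 (GRCh38, another build than that named for the files), 2 of the 81 members measured in both lines had a site in the longest annotated 3' UTR (2.47%), as had 243 of 10135 genes searched (2.40%). The members' 3' UTRs were shorter, with a median of 449 bases against 1352 bases over all genes searched. In coding sequence 1 member had a site (1.23%), against 458 of 10135 genes (4.52%). All 3 sites are shown with their surroundings, the site in capitals and the strand of the mRNA printed.
NDUFA5 3' UTR, chr7:123541214-123541220, minus strand: atatctggcatACGGATAggcttatattca
SDHC 3' UTR, chr1:161369003-161369009, plus strand: tggccgaagcaGACGGATcacaaggtcagg
ATP5J2-PTCD1 coding sequence, chr7:99419987-99419993, minus strand: aggaggctgatGACGGATgtgcccttgggg

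The levels of these 3 site carriers differed little between mimic and scramble, or were higher with the mimic. NDUFA5, an accessory subunit of the arm of complex I that stands in the matrix, was at 5.82 FPKM in the MIA PaCa-2 mimic library against 6.27 FPKM in the MIA PaCa-2 scramble library, and at 8.04 FPKM in PSN-1 mimic against 7.43 FPKM in PSN-1 scramble. SDHC, a membrane anchor of complex II, was at 31.5 FPKM in MIA PaCa-2 mimic against 32.3 FPKM in MIA PaCa-2 scramble, and at 30.05 FPKM in PSN-1 mimic against 30.28 FPKM in PSN-1 scramble. The SDHC site lies in the 3' UTR of 1 annotated transcript. The read-through symbol ATP5J2-PTCD1 was at 5.56 FPKM in MIA PaCa-2 mimic against 3.98 FPKM in MIA PaCa-2 scramble, and at 2.64 FPKM in PSN-1 mimic against 1.496 FPKM in PSN-1 scramble. It shares its sequence with ATP5J2 and PTCD1, so how reads were divided among the 3 symbols is uncertain.

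Members took a smaller share of the summed FPKM in the mimic library of each line. That share was 1.84% in MIA PaCa-2 mimic against 2.0003% in MIA PaCa-2 scramble, and 1.97% in PSN-1 mimic against 2.09% in PSN-1 scramble. The median member was at 74.5 FPKM in MIA PaCa-2 mimic against 80.4 FPKM in MIA PaCa-2 scramble, and at 70.0 FPKM in PSN-1 mimic against 80.0 FPKM in PSN-1 scramble. In bulk RNA, fewer cells that express a gene and less of its RNA per cell cannot be told apart. Depth, estimated from the steps that whole fragments leave among low values, was 14.2 and 15.95 fragments per kb and FPKM in the MIA PaCa-2 and PSN-1 mimic libraries and 12.7 and 12.6 in the scramble libraries of the same lines. The counting error of a log2 change over the members had a median of 0.078 in MIA PaCa-2 cells and 0.075 in PSN-1, which leaves out any error between cultures. Both lines are labelled epithelial: KRT8, KRT18 and KRT19 were at 78.2 FPKM or above in each library, while EPCAM was at 0.139 FPKM in MIA PaCa-2 mimic and 0.104 FPKM in MIA PaCa-2 scramble, and at 28.4 FPKM in PSN-1 mimic and 24.1 FPKM in PSN-1 scramble. CDH1 was at 1.51 FPKM or below in all 4 libraries. KRT7 was listed at 0 in MIA PaCa-2 and was at 287 FPKM in PSN-1 mimic against 406 FPKM in PSN-1 scramble. Mesenchymal markers were mixed. VIM was at 4401 FPKM in MIA PaCa-2 mimic and 4111 FPKM in MIA PaCa-2 scramble, and at 1235 FPKM in PSN-1 mimic and 1144 FPKM in PSN-1 scramble. ZEB1 was at 30.5 FPKM in MIA PaCa-2 mimic and 24.1 FPKM in MIA PaCa-2 scramble, and at 22.7 FPKM in PSN-1 mimic and 19.8 FPKM in PSN-1 scramble. CDH2 was at 0.0514 FPKM or below in all 4 libraries. Of the leukocyte markers reported, PTPRC and CD3E were at 0.433 FPKM or below in all 4 libraries, and CD14 was at 0.731 FPKM in MIA PaCa-2 mimic against 0.876 FPKM in MIA PaCa-2 scramble, and at 2.70 FPKM in PSN-1 mimic against 4.95 FPKM in PSN-1 scramble. The 3 endothelial markers PECAM1, CDH5 and VWF were at 1.58 FPKM or below. The 5 fibroblast markers summed to 66.9 FPKM in MIA PaCa-2 mimic against 84.6 FPKM in MIA PaCa-2 scramble, and to 60.8 FPKM in PSN-1 mimic against 78.1 FPKM in PSN-1 scramble. Those that passed the filter on low values, 2 in MIA PaCa-2 (COL1A2 and COL3A1) and 3 in PSN-1 (COL1A1, COL3A1 and LUM), were lower in the mimic library, and DCN was at 0.292 FPKM or below. The part of these markers' cell types in the members' values was not tested.

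Each change given from here on is the log2 ratio of FPKM + 1 with the mimic to FPKM + 1 with the scramble, and the added 1 makes changes of genes with low FPKM look smaller than they are. A gene counts as measured in a line at a mean of at least 1 FPKM over its 2 libraries, which held for 81 members in MIA PaCa-2 cells and 82 in PSN-1. Most members lay slightly below 0. In MIA PaCa-2 54 of 81 were below 0 (66.7%, median -0.05), beside 47.8% of all 11484 genes measured there (median 0.01). In PSN-1 65 of 82 were below 0 (79.3%, median -0.08), beside 52.4% of 12233 genes (median -0.02). Of the 81 members measured in both lines, 45 were below 0 in both (55.6%), 7 were above 0 in both and 29 differed in sign, while 27.6% of all 10678 genes measured in both lines were below 0 in both. These shifts were small: 70 of 81 members in MIA PaCa-2 (86.4%) were within 1.25-fold, as were 70 of 82 in PSN-1 (85.4%), beside 72.0% and 75.7% of all genes in the same lines.

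Past 1.5-fold, a log2 change of 0.585 either way, members were few. In MIA PaCa-2 2 of 81 members were lower past 1.5-fold (2.47%), beside 4.06% of all genes, and 0 were higher, beside 5.43% of all genes. In PSN-1 3 of 82 were lower (3.66%), beside 3.87% of all genes, and 0 were higher, beside 3.17%. ATP5I and ATP5G3, both of ATP synthase, were lower past 1.5-fold in both lines, 2 of 81 members (2.47%) beside 0.609% of all genes, and 0 members were higher in both, beside 0.749%. The third member in PSN-1 was NDUFA8 of complex I. Rescaled to TPM, 5 of 83 members in MIA PaCa-2 were lower past 1.5-fold (6.02%), beside 6.12% of all genes. With that scaling 1 member was higher (1.2%), beside 5.52% of all genes, so the count depends on the scaling. With 1 library per group there is no test within a line.

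**Figure D1:**
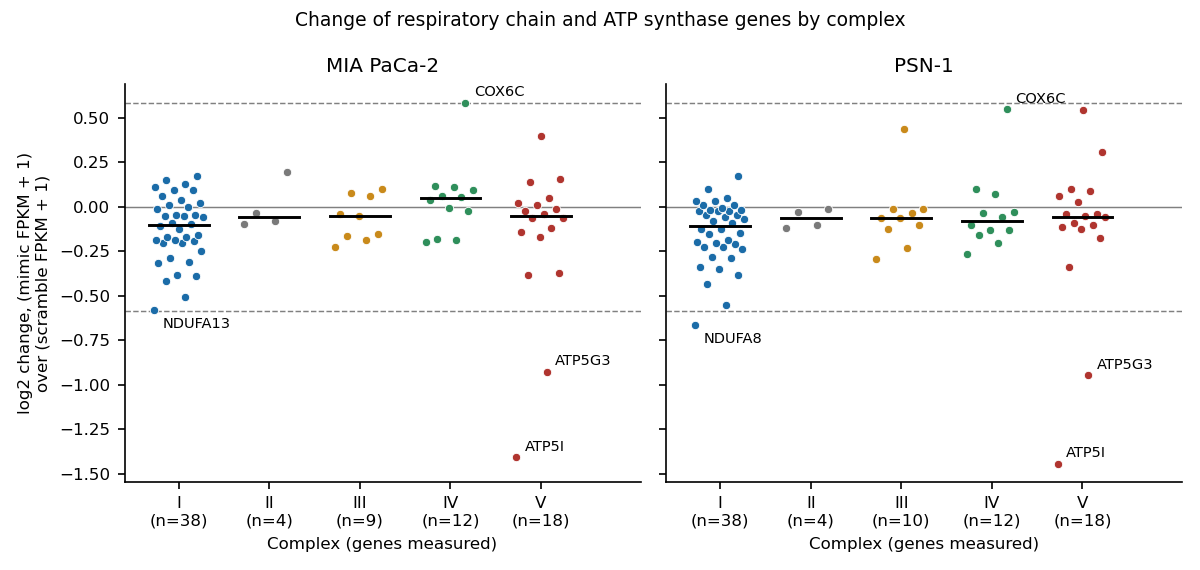
Each point is 1 gene with a mean of at least 1 FPKM in the line; the vertical axis is the log2 change, mimic over scramble, the black bar is the median of the complex and the dashed lines mark 1.5-fold. ATP5I and ATP5G3 stand below the other members in both lines, and 4 of 5 medians in MIA PaCa-2 cells and all 5 in PSN-1 are below 0.

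A fit of both lines with limma, in which the line was a block and 1 residual degree of freedom was left, tested the effect shared by the lines. At a Benjamini-Hochberg adjusted p under 0.05, ATP5I was called lower, 1 of 81 members (1.23%) beside 0.00937% of all 10678 genes. No member was called higher in limma, beside 0.0562% of all genes. At an unadjusted p under 0.05 the limma fit had 9 of 81 members lower, beside 526 of all 10678 genes. It had 2 of 81 members higher, beside 534 of all 10678 genes. Whether a change differed between the lines could not be tested with 1 library per group.

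ATP synthase held the members that stood farthest from 0. ATP5I, now named ATP5ME, encodes subunit e, a small protein of the membrane part of the enzyme known for its part in joining ATP synthases into dimers. Its level was 75.5 FPKM in MIA PaCa-2 mimic against 202 FPKM in MIA PaCa-2 scramble, and 59.0 FPKM in PSN-1 mimic against 162 FPKM in PSN-1 scramble. Both mimic libraries were below both scramble libraries. ATP5I fell with the mimic by a mean of 1.43 on the log2 scale (-1.41 in MIA PaCa-2 cells and -1.44 in PSN-1, SE 0.0998, adjusted p = 0.0159 in limma). The counting error of these changes was estimated at 0.129 in MIA PaCa-2 cells and 0.140 in PSN-1. Its change was the lowest of the members in each line, at rank 38 from the lowest of 11484 genes in MIA PaCa-2 and rank 31 of 12233 genes in PSN-1. The call was lost with adjusted p = 0.578 without the filter on low values, 0.144 without the trend of the variance and 0.9999 without the line as a block, in limma, at the same size of change.

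ATP5I lies on chromosome 4 at 672436 to 674338, minus strand (GENCODE 29, GRCh38), with 1 annotated coding transcript of 365 bases and a 3' UTR of 64 bases that holds none of the seed sites. The gene MYL5, a myosin light chain, overlaps it on the opposite strand. MYL5 was at 24.3 FPKM in MIA PaCa-2 mimic against 21.6 FPKM in MIA PaCa-2 scramble, and at 6.41 FPKM in PSN-1 mimic against 6.20 FPKM in PSN-1 scramble. The log2 changes of MYL5 were 0.17 and 0.04. Whether counting used the strand is not given in the sources used here.

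Among the 15 structural genes of ATP synthase, ordered by level within each library, ATP5I took place 12 in MIA PaCa-2 mimic against place 7 in MIA PaCa-2 scramble, and place 13 in PSN-1 mimic against place 8 in PSN-1 scramble. It made up 2.82% of the summed FPKM of these genes in MIA PaCa-2 mimic against 6.84% in MIA PaCa-2 scramble, and 1.94% in PSN-1 mimic against 5.09% in PSN-1 scramble. ATP5J2 and ATP5L encode subunits f and g, its neighbours in the membrane. ATP5J2 was at 369 FPKM in MIA PaCa-2 mimic against 408 FPKM in MIA PaCa-2 scramble, and at 186 FPKM in PSN-1 mimic against 198 FPKM in PSN-1 scramble. Its shortest transcript, of 305 bases, is shorter than that of ATP5I, and its log2 changes were -0.14 and -0.09. ATP5L was at 67.8 FPKM in MIA PaCa-2 mimic against 65.7 FPKM in MIA PaCa-2 scramble, and at 63.6 FPKM in PSN-1 mimic against 68.3 FPKM in PSN-1 scramble. The log2 changes of these neighbours thus lay between -0.14 and 0.05 in the 2 lines, next to those of ATP5I at -1.41 and -1.44.

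**Figure D2:**
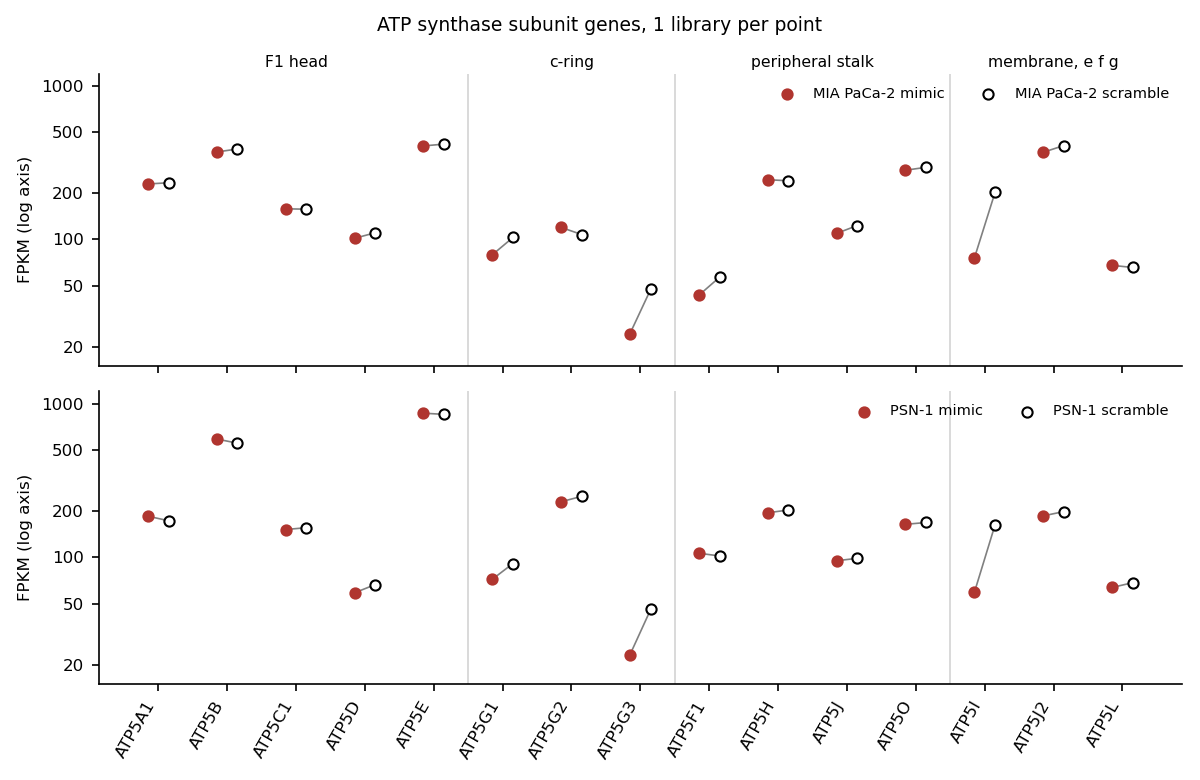
FPKM of the 15 structural ATP synthase genes in MIA PaCa-2 (upper panel) and PSN-1 (lower panel) on a log axis, 1 library per point, with the mimic as a filled point to the left of the scramble as an open point, joined by a line. ATP5I, at 75.5 against 202 FPKM and 59.0 against 162 FPKM, and ATP5G3 have the steepest lines, while the F1 head genes are nearly level.

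The c-ring subunit is encoded by ATP5G1, ATP5G2 and ATP5G3, whose mature proteins are the same and whose import sequences differ. ATP5G3, now ATP5MC3, was at 24.4 FPKM in MIA PaCa-2 mimic against 47.3 FPKM in MIA PaCa-2 scramble, and at 23.2 FPKM in PSN-1 mimic against 45.7 FPKM in PSN-1 scramble. Both mimic libraries were below both scramble libraries (log2 changes -0.93 and -0.95, SE of the shared effect 0.124). The shared effect of ATP5G3 did not pass the test (adjusted p = 0.119 in limma), except with median-ratio scaling (adjusted p = 0.0478 in limma). Its longest annotated 3' UTR, of 2030 bases, holds none of the seed sites. ATP5G1 was at 79.4 FPKM in MIA PaCa-2 mimic against 103 FPKM in MIA PaCa-2 scramble, and at 71.9 FPKM in PSN-1 mimic against 91.0 FPKM in PSN-1 scramble (log2 changes -0.37 and -0.34, adjusted p = 0.385 in limma). ATP5G2, the most abundant of the 3 in every library, was at 119.7 FPKM in MIA PaCa-2 mimic against 108 FPKM in MIA PaCa-2 scramble, and at 229.7 FPKM in PSN-1 mimic against 249 FPKM in PSN-1 scramble. The signs of ATP5G2 differed between the lines.

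Summed over the 3 genes, c-ring mRNA was at 224 FPKM in MIA PaCa-2 mimic against 258 FPKM in MIA PaCa-2 scramble, and at 325 FPKM in PSN-1 mimic against 386 FPKM in PSN-1 scramble (log2 changes of the sum -0.20 and -0.25). ATP5G3 gave 10.9% of that sum in MIA PaCa-2 mimic against 18.4% in MIA PaCa-2 scramble, and 7.15% in PSN-1 mimic against 11.9% in PSN-1 scramble. The summed c-ring level thus lay nearer to its scramble level than ATP5G3 itself did, and the more abundant ATP5G2 and ATP5G1 made up most of the sum.

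The F1 head genes, which encode the catalytic part, had log2 changes between -0.17 and 0.10. ATP5D had the lowest of them in each line, -0.12 in MIA PaCa-2 cells and -0.17 in PSN-1. ATP5B, the catalytic beta subunit, was at 370.5 FPKM in MIA PaCa-2 mimic against 388 FPKM in MIA PaCa-2 scramble, and at 587 FPKM in PSN-1 mimic against 552 FPKM in PSN-1 scramble. ATP5A1, the alpha subunit, had the highest mean change among ATP synthase genes of at least 5 FPKM, with log2 changes of -0.03 in MIA PaCa-2 cells and 0.10 in PSN-1. The 5 head genes had a median of -0.04 in MIA PaCa-2 cells and 0.03 in PSN-1. The 4 genes of the peripheral stalk, which holds the head still, had medians of -0.12 and -0.05 in the same lines. ATP5F1, the stalk's subunit b, was at 43.3 FPKM in MIA PaCa-2 mimic against 56.8 FPKM in MIA PaCa-2 scramble and at 106 FPKM in PSN-1 mimic against 102 FPKM in PSN-1 scramble, with opposite signs. Without ATP5I and ATP5G3, 10 of 16 complex V genes were below 0 in each line, with medians of -0.03 in MIA PaCa-2 cells and -0.05 in PSN-1.

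Complex I, the NADH dehydrogenase, had the lowest median of the 5 complexes in each line, -0.10 in MIA PaCa-2 cells and -0.11 in PSN-1. Of its 38 genes 28 were below 0 in MIA PaCa-2, 31 in PSN-1 and 23 in both. The 7 nuclear genes of the catalytic core, which carry the flavin and the iron-sulfur clusters, had medians of -0.05 in each line, and the 30 accessory subunit genes had medians of -0.11 in each line. NDUFS1, which encodes the largest core subunit, was at 33.49 FPKM in MIA PaCa-2 mimic against 33.52 FPKM in MIA PaCa-2 scramble, and at 36.2 FPKM in PSN-1 mimic against 36.8 FPKM in PSN-1 scramble. Levels of this core gene were nearly equal in the mimic and scramble libraries of each line.

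By mean change, the structural complex I genes farthest below 0 were the accessory subunits NDUFA13, NDUFA8 and NDUFB2. NDUFA13, also known as GRIM-19, was at 140.1 FPKM in MIA PaCa-2 mimic against 209.7 FPKM in MIA PaCa-2 scramble, and at 145 FPKM in PSN-1 mimic against 196 FPKM in PSN-1 scramble. Both mimic libraries were below both scramble libraries (log2 changes -0.58 and -0.43), and the shared effect did not pass the test (adjusted p = 0.212 in limma). YJEFN3, which overlaps NDUFA13 on the same strand, was at 1.65 FPKM in MIA PaCa-2 mimic against 3.93 FPKM in MIA PaCa-2 scramble and at 8.29 FPKM in PSN-1 mimic against 10.5 FPKM in PSN-1 scramble, and its part in the NDUFA13 values was not tested. NDUFA8 was at 65.1 FPKM in MIA PaCa-2 mimic against 80.9 FPKM in MIA PaCa-2 scramble, and at 50.4 FPKM in PSN-1 mimic against 80.3 FPKM in PSN-1 scramble (log2 changes -0.31 and -0.66, adjusted p = 0.343 in limma). NDUFB2, of the membrane arm, was at 141 FPKM in MIA PaCa-2 mimic against 172 FPKM in MIA PaCa-2 scramble, and at 74.6 FPKM in PSN-1 mimic against 110.0 FPKM in PSN-1 scramble (log2 changes -0.29 and -0.55, adjusted p = 0.339 in limma). For NDUFA8 and NDUFB2 the PSN-1 libraries lay farther apart than the MIA PaCa-2 libraries, and that difference between the lines was not tested. The read-through symbol NDUFC2-KCTD14, with a mean change between those of NDUFA8 and NDUFB2, was at 1.37 FPKM in MIA PaCa-2 mimic against 2.36 FPKM in MIA PaCa-2 scramble, and at 5.61 FPKM in PSN-1 mimic against 7.62 FPKM in PSN-1 scramble. In MIA PaCa-2 alone NDUFA2 (-0.42), NDUFB10 (-0.39), NDUFB3 (-0.38) and NDUFA3 (-0.31) had log2 changes below those of NDUFA8 and NDUFB2. At the upper end NDUFS4, an accessory subunit gene, had log2 changes of 0.09 and 0.01.

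**Figure D3:**
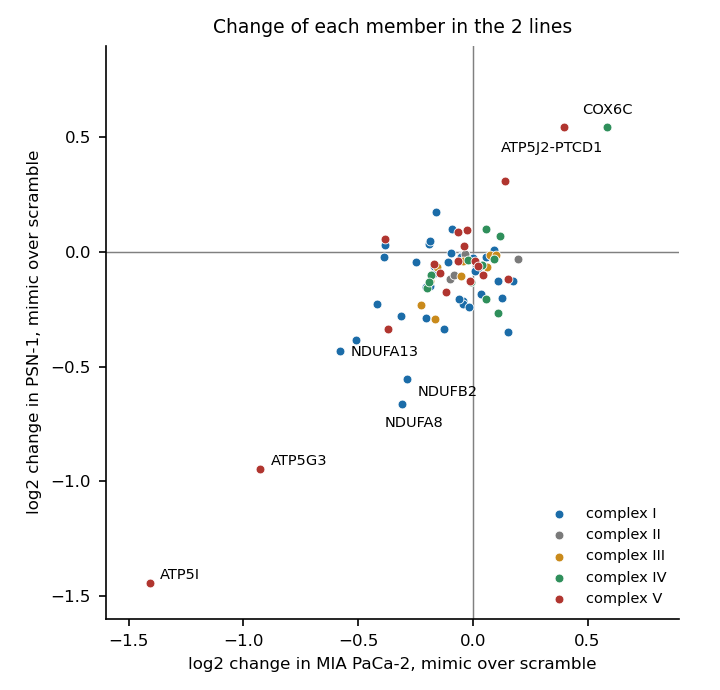
Log2 change of each of the 81 members measured in both lines, mimic over scramble, in MIA PaCa-2 (horizontal axis) and PSN-1 (vertical axis), coloured by complex. ATP5I and ATP5G3 lie at the lower left, at -1.41 and -1.44 and at -0.93 and -0.95, COX6C lies at the upper right at 0.58 and 0.55, and most members lie near the origin, 45 of them below 0 in both lines.

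Complex II, succinate dehydrogenase, is the complex whose genes are all nuclear. SDHA, the flavoprotein, was at 73.4 FPKM in MIA PaCa-2 mimic against 78.7 FPKM in MIA PaCa-2 scramble, and at 57.4 FPKM in PSN-1 mimic against 62.4 FPKM in PSN-1 scramble. SDHB, the iron-sulfur subunit, was at 145 FPKM in MIA PaCa-2 mimic against 126 FPKM in MIA PaCa-2 scramble, and at 95.4 FPKM in PSN-1 mimic against 97.4 FPKM in PSN-1 scramble. SDHD, the other membrane anchor beside SDHC, had log2 changes of -0.08 and -0.10. All 4 genes stayed within 0.20 log2 of their scramble levels, and 3 of the 4 were below 0 in both lines.

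Complex III passes electrons to cytochrome c, and its genes gave 6 of 9 below 0 in MIA PaCa-2 (median -0.05) and 9 of 10 in PSN-1 (median -0.06). UQCRFS1, the Rieske iron-sulfur protein, was at 24.7 FPKM in MIA PaCa-2 mimic against 29.1 FPKM in MIA PaCa-2 scramble, and at 14.2 FPKM in PSN-1 mimic against 16.8 FPKM in PSN-1 scramble. UQCR11, a small subunit with the lowest mean change of the complex III genes measured in both lines, was at 65.5 FPKM in MIA PaCa-2 mimic against 73.7 FPKM in MIA PaCa-2 scramble, and at 25.2 FPKM in PSN-1 mimic against 31.0 FPKM in PSN-1 scramble. UQCRH, the hinge protein that helps cytochrome c dock, was at 340.5 FPKM in MIA PaCa-2 mimic against 317 FPKM in MIA PaCa-2 scramble, and at 503 FPKM in PSN-1 mimic against 508 FPKM in PSN-1 scramble. Among complex III genes measured in both lines UQCRH had the highest mean change, with log2 changes of 0.10 and -0.01. Its near copy UQCRHL was at 1.254 FPKM or above in the mimic libraries and 0.705 FPKM or below in the scramble libraries (log2 changes 0.62, under the filter on low values, and 0.43), and reads of the 2 copies can have been divided between them.

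Complex IV, cytochrome c oxidase, was the only complex with a median above 0 in a line, 0.05 in MIA PaCa-2 with 5 of 12 genes below 0, which became 0.0037 with 6 of 12 below 0 when rescaled to TPM. In PSN-1 its median was -0.08 with 9 of 12 below 0. COX6C, a small membrane subunit, was the structural subunit with the highest change in each line. It was at 47.9 FPKM in MIA PaCa-2 mimic against 31.6 FPKM in MIA PaCa-2 scramble, and at 86.0 FPKM in PSN-1 mimic against 58.6 FPKM in PSN-1 scramble (log2 changes 0.58 and 0.55, adjusted p = 0.239 in limma). Within each line the mimic library was higher, with a log2 change just under 0.585 once 1 is added to each value, and 1.52-fold on the plain FPKM of MIA PaCa-2. The MIA PaCa-2 mimic level was below the PSN-1 scramble level. COX6C has 17 named pseudogenes in GENCODE 29, so the division of its reads is uncertain. Other members have such copies too, among them NDUFA5 and NDUFB4 with 12 each, and ATP5A1, ATP5F1 and ATP5G1 with 7 each. COX5A, a subunit that faces the matrix, had the lowest mean change of the complex IV genes measured in both lines and was at 101 FPKM in MIA PaCa-2 mimic against 116 FPKM in MIA PaCa-2 scramble, and at 148 FPKM in PSN-1 mimic against 165 FPKM in PSN-1 scramble. COX5B was at 312 FPKM in MIA PaCa-2 mimic against 289 FPKM in MIA PaCa-2 scramble, and at 257 FPKM in PSN-1 mimic against 309 FPKM in PSN-1 scramble, with opposite signs in the lines.

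Several complex IV subunits have tissue-specific forms, and both lines had the widespread form. COX4I1, the widespread form of subunit 4, was at 409 FPKM in MIA PaCa-2 mimic against 415 FPKM in MIA PaCa-2 scramble, and at 318 FPKM in PSN-1 mimic against 326 FPKM in PSN-1 scramble, while COX4I2, COX6A2, a form of heart and skeletal muscle, and COX7B2 were listed at 0 in all 4 libraries. COX7A2, the widespread form of subunit 7a, was at 63.5 FPKM in MIA PaCa-2 mimic against 72.1 FPKM in MIA PaCa-2 scramble, and at 82.9 FPKM in PSN-1 mimic against 89.0 FPKM in PSN-1 scramble. Its muscle form COX7A1 reached 0.423 FPKM at most, and COX6B2 0.216 FPKM. COX8C was at 0.640 FPKM in MIA PaCa-2 mimic against 1.19 FPKM in MIA PaCa-2 scramble and was listed at 0 in both PSN-1 libraries. These less widespread forms were thus at 1.19 FPKM or below whichever oligonucleotide was used. NDUFA4 was at 37.4 FPKM in MIA PaCa-2 mimic against 36.0 FPKM in MIA PaCa-2 scramble, and at 43.2 FPKM in PSN-1 mimic against 49.9 FPKM in PSN-1 scramble, and its hypoxia-induced paralogue NDUFA4L2 reached 0.699 FPKM at most. COX7A2L, known for joining complexes III and IV into supercomplexes, was at 60.3 FPKM in MIA PaCa-2 mimic against 57.9 FPKM in MIA PaCa-2 scramble, and at 50.1 FPKM in PSN-1 mimic against 46.6 FPKM in PSN-1 scramble. In both lines the widespread forms of these complex IV subunits were the more abundant, with mimic and scramble alike. Whether a form near 0 was present cannot be told from 1 library per group.

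**Figure D4:**
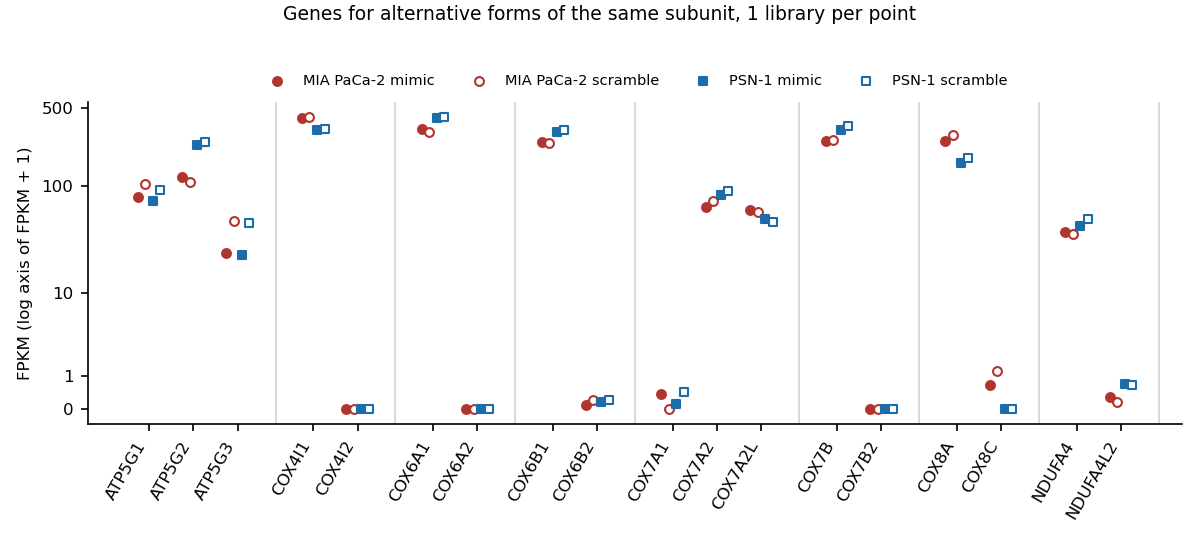
FPKM of genes for alternative forms of the same subunit, 1 library per point, on a log axis of FPKM + 1, with the mimic as a filled and the scramble as an open symbol, circles for MIA PaCa-2 and squares for PSN-1. The widespread forms such as COX4I1 (409, 415, 318 and 326 FPKM) lie far above their tissue-specific partners, which are at or near 0, and ATP5G3 is the c-ring gene whose mimic and scramble points stand farthest apart.

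Transcript length and promoter motifs are features that the choice of members did not use. Genes were classed by the median length of their annotated coding transcripts. Among members under 1000 bases by that measure, 45 in all, the median change was -0.14 in MIA PaCa-2 cells and -0.10 in PSN-1. For the other 596 genes of that length class it was -0.0036 and -0.09. Among the 36 longer members it was -0.04 in each line, beside 0.02 in MIA PaCa-2 cells and -0.01 in PSN-1 for 9458 other genes. In PSN-1 64.8% of the other short genes were below 0, beside 51.3% of the other long ones, and the part of transcript length in the members' values was not tested. The motif searched was the core of the site of NRF1, a transcription factor known to bind promoters of respiratory genes, as GCGCATGCG or GCGCACGCG on either strand in the 250 bases before the gene start in RefSeq (GRCh38.p14). It was found in 14 of 67 structural subunit promoters in that table (20.9%) and in 757 of 15843 promoters of protein-coding genes (4.78%). Members with the motif, among them ATP5I, ATP5G2, ATP5C1, NDUFA3 and UQCR11, had medians of -0.07 in MIA PaCa-2 cells and -0.13 in PSN-1, and the 48 measured members without it had medians of -0.06 and -0.07. A match is a stretch of letters and not a measured site.

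Genes that serve the chain without being part of it were described from lists. Of 47 measured assembly factors, which help the complexes to form, 23 were below 0 in MIA PaCa-2 (median 0.03) and 35 in PSN-1 (median -0.08). Of these factors 3 were lower past 1.5-fold in PSN-1, COX14 (-1.08), COX19 (-0.59) and SDHAF4 (-0.59), beside 3.87% of all genes. In MIA PaCa-2 1 was lower past 1.5-fold, SDHAF3 (-0.63), beside 4.06% of all genes. None was higher past 1.5-fold in either line. COX14, a factor of complex IV assembly, was at 4.17 FPKM in PSN-1 mimic against 9.93 FPKM in PSN-1 scramble. It was at 6.12 FPKM in MIA PaCa-2 mimic against 6.73 FPKM in MIA PaCa-2 scramble. Regulators of mitochondrial biogenesis had medians of 0.02 over 16 genes in MIA PaCa-2 and -0.0017 over 17 genes in PSN-1. SSBP1, which coats single strands of mitochondrial DNA, was the gene of these lists past 1.5-fold in the same direction in both lines. It was at 74.9 FPKM in MIA PaCa-2 mimic against 116 FPKM in MIA PaCa-2 scramble, and at 55.4 FPKM in PSN-1 mimic against 84.5 FPKM in PSN-1 scramble. All 18 tricarboxylic acid cycle genes stayed within 1.25-fold in both lines, with medians of 0.01 and 0.05, and CS, citrate synthase, was at 65.4 FPKM in MIA PaCa-2 mimic against 64.6 FPKM in MIA PaCa-2 scramble and at 106 FPKM in PSN-1 mimic against 103 FPKM in PSN-1 scramble. The 14 genes of cytochrome c, its lyase and the quinone pool had medians of -0.0016 in MIA PaCa-2 cells and 0.10 in PSN-1. Of these 14, 2 were higher past 1.5-fold in PSN-1, COQ3 (0.73) and PDSS1 (0.61), beside 3.17% of all genes.

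For most members the 2 lines lay farther apart than mimic and scramble did. In the same limma fit, with the oligonucleotide as a block, 21 of 81 members were higher in PSN-1 (25.9%, beside 24.2% of all genes) and 30 were lower in PSN-1 (37.0%, beside 27.5% of all genes) at an adjusted p under 0.05. That split depended on the scaling. With median-ratio scaling 24 members were higher and 25 lower in PSN-1, beside 2866 genes higher and 2863 lower of 10676. With TPM scaling 24 of 82 members were higher and 25 lower, beside 3067 genes higher and 3046 lower of 11575. The median absolute log2 difference was 0.37 between PSN-1 and MIA PaCa-2 and 0.08 between mimic and scramble, and the absolute line difference was the larger of the 2 in 70 of 81 members. These values were not computed over all genes, so they cannot be read as particular to the members. Differences ran both ways within a complex. Among 38 complex I genes, PSN-1 had 7 higher and 15 lower, of 18 complex V genes 4 and 8, of 9 complex III genes 4 and 3, of 12 complex IV genes 6 and 2, and of 4 complex II genes 0 and 2. Each line has 2 libraries that differ in the oligonucleotide, and line and library preparation cannot be told apart.

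ATP5E, the epsilon subunit of the ATP synthase head and the member with the highest mean level, was at 865 FPKM in PSN-1 mimic and 850.2 FPKM in PSN-1 scramble, against 406 FPKM in MIA PaCa-2 mimic and 417 FPKM in MIA PaCa-2 scramble. Both PSN-1 libraries lay above both MIA PaCa-2 libraries. ATP5E was higher in PSN-1 by 1.06 on the log2 scale (SE 0.0707, adjusted p = 0.00033 in limma). NDUFC2-KCTD14 had the largest difference upward, 1.42 (adjusted p = 0.00186 in limma), at the low levels given above. ATP5F1 was higher in PSN-1 by 1.05 (adjusted p = 0.00241 in limma), ATP5G2 by 1.07 (adjusted p = 0.000969 in limma) and NDUFAB1, the mitochondrial acyl carrier protein, by 1.19 (adjusted p = 0.000777 in limma). NDUFV3, an accessory subunit of the NADH-oxidising module of complex I, was at 10.5 FPKM in PSN-1 mimic and 12.3 FPKM in PSN-1 scramble, against 33.3 FPKM in MIA PaCa-2 mimic and 34.7 FPKM in MIA PaCa-2 scramble. It was the member lowest in PSN-1 relative to MIA PaCa-2 (log2 difference -1.50, SE 0.138, adjusted p = 0.000777 in limma). UQCR11 (-1.28), NDUFB11 (-1.22), NDUFB1 (-1.19), NDUFA10 (-1.11) and ATP5J2 (-1.01) were also lower in PSN-1. For COX6C the difference between the lines, 0.85 (adjusted p = 0.00244 in limma), stood beside a shared effect of 0.57 between mimic and scramble. ATP5G3 levels did not differ between the lines beyond their error (log2 difference -0.06, 95% interval -0.36 to 0.25).

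**Figure D5:**
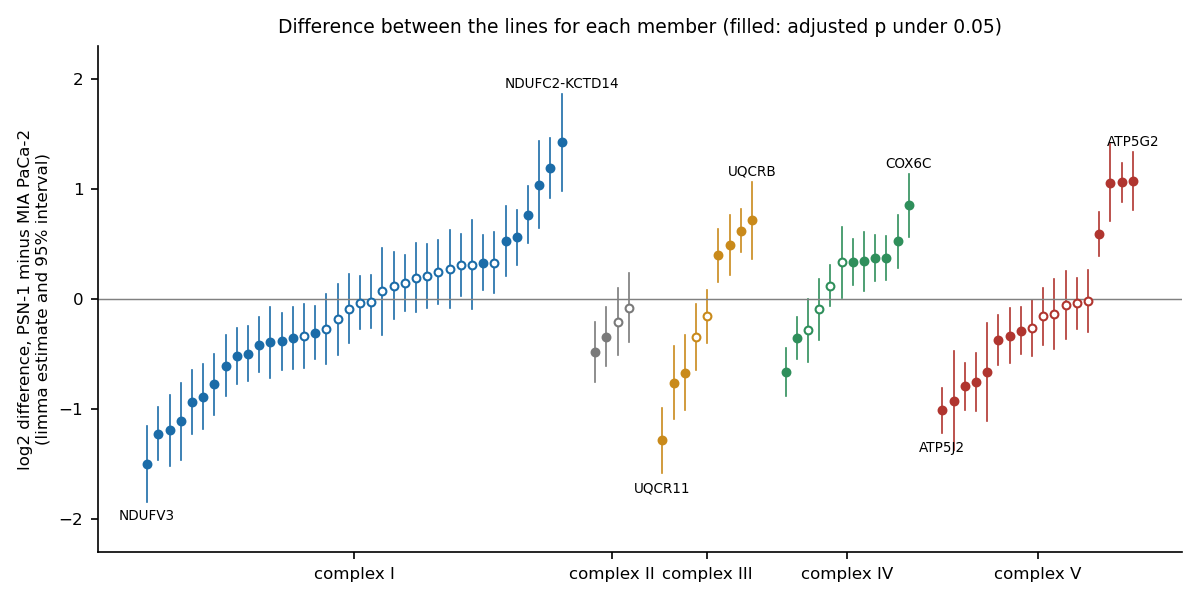
Log2 difference between PSN-1 and MIA PaCa-2 for each of the 81 members measured in both lines, ordered within each complex, with the limma estimate as a point and its 95% interval as a line; filled points have an adjusted p under 0.05. The 21 filled points above 0 and the 30 below 0 are spread over the complexes, from NDUFV3 at -1.50 to NDUFC2-KCTD14 at 1.42.

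By level, the members with the highest mean over the 4 libraries were ATP5E, ATP5B, COX7C, UQCRH and COX4I1. COX7C, a small subunit of complex IV, was at 426 FPKM in MIA PaCa-2 mimic against 393 FPKM in MIA PaCa-2 scramble, and at 457 FPKM in PSN-1 mimic against 435 FPKM in PSN-1 scramble. COX7C was among the 7 members above 0 in both lines. The F1 head held the genes with the highest and second highest mean levels, and the c-ring gene ATP5G3 had the lowest level of the 15 structural ATP synthase genes in every library.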

How the data were processed

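Per the labels' protocols, total RNA (miRNeasy Micro kit) went into polyadenylated, stranded libraries (TruSeq stranded mRNA kit). The files hold FPKM by gene symbol as the authors deposited them, with the unit named in the file headers. TopHat2 2.1.1, Cuffdiff 2.2.1 and hg19 appear in the submitters' processing notes without their roles. For the annotation, the strand setting and the scaling between libraries, nothing is given in the sources used here.

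Samples were grouped by line and oligonucleotide from the labels. From the FPKM the authors deposited, log2 changes were computed after 1 was added as a pseudocount, in genes whose mean over the line's 2 libraries reached 1 FPKM. The shared effect and the line difference came from a limma 3.58.1 fit run under R 4.3.3 (lmFit and eBayes with trend, two-sided, line and oligonucleotide as terms, 1 residual degree of freedom), with Benjamini-Hochberg adjustment over 10678 genes measured in both lines. The script was tested on simulated data. Pairing is by cell line, and the labels carry no replicate numbers. Nothing says that libraries came from separate cultures, so p-values cannot be taken to measure the spread between cultures. The 1 residual degree of freedom reflects how far the mimic changes of the 2 lines differ. The fit also draws each gene's variance toward a trend over all genes, with 5.75 degrees of freedom in total. The p-values therefore rest largely on the spread of other genes.

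Depth was estimated from genes under 0.3 FPKM with 1 annotated transcript of at least 1000 bases, assuming fragments of 200 bases. Between 45.4% and 50.3% of such values lay within 5% of 1 to 4 fragments, so the estimate is rough. GENCODE 29 and the RefSeq tables were joined by current and older symbols (90 of 90 members in GENCODE). Scripts ran under Python 3.11.15 with numpy 2.4.6, pandas 2.3.3 and matplotlib 3.10.9.

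Members and lists were chosen with earlier results of these data known. Named genes were ATP5I, members past 1.5-fold at a mean of at least 5 FPKM, the lowest and highest mean change of each complex, paralogue families, SDH genes, the 5 highest levels, the genes limma called (the 5 largest each way between lines) and list genes past 1.5-fold in both lines. The other genes with values were chosen after their values were seen. Alternatives were other pseudocounts, filters, scalings and terms of the fit.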

Additional observations from a re-analysis of the deposited data

How the results depend on the processing

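The median change of the members stayed below 0 in both lines under all 8 alternatives run, from -0.10 to -0.05 in MIA PaCa-2 and from -0.09 to -0.06 in PSN-1, and the ATP5I change ran from -1.46 to -1.36 in MIA PaCa-2 and from -1.46 to -1.39 in PSN-1. The shared effect of ATP5I was -1.43 in limma without the filter (adjusted p = 0.578), without the trend (0.144) and without the line as a block (0.9999). It passed the test under the 5 other alternatives, and its adjusted p over all alternatives ran from 0.00316 to 0.9999. The number of members called for the mimic by limma was 0 under those 3 settings and 2 with median-ratio scaling, which added ATP5G3 (-0.94), against 1 as reported. Over all genes, limma called 0 without the filter and without the line as a block, and 0 lower and 6 higher without the trend. With median-ratio scaling it called 14 genes lower and 21 higher of 10676, against 1 lower and 6 higher as reported. Between PSN-1 and MIA PaCa-2, limma called 0 members without the filter, and 35 to 53 under the other alternatives, against 51 as reported. Without the filter it also called 0 of all 26255 genes. The 35 members, without the trend, stood beside 2818 genes lower and 2502 higher of 10678. The 53 members, without short non-coding genes, stood beside 3018 genes lower and 2670 higher of 10626. The cause of these losses was not tested. Past 1.5-fold in MIA PaCa-2, TPM scaling gave 5 members lower and 1 higher, and a pseudocount of 0.1 and no filter each gave 1 higher, against 2 and 0 as reported. With TPM scaling the lower and higher members there were 6.02% and 1.2%, beside 6.12% and 5.52% of all genes. In PSN-1 a pseudocount of 0.1 gave 2 members higher and TPM scaling gave 1, against 0 as reported, while 3 were lower under each alternative. With TPM scaling 3.61% of members were lower in PSN-1, beside 5.29% of all genes, and 1.2% were higher, beside 4.66%. For other pseudocounts and filters no share over all genes was computed. Scaling moved the median of all genes by less than 0.1 on the log2 scale (-0.04 to 0.02), and no complex median changed sign with it, although that of complex IV in MIA PaCa-2, 0.05 as reported, became 0.0037 with TPM scaling.

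No library was left out in turn, as the fit then has 0 residual degrees of freedom. No paired analysis was possible by replicate number because the labels carry none; the line itself was the block. With 1 library per group, changes of single genes near the counting error cannot be told from it. Symbols with near copies or overlapping genes (among them COX6C, UQCRHL, ATP5J2-PTCD1, NDUFA13, ATP5F1 and ATP5G1) have uncertain values, as their reads can be divided between symbols. Short transcripts depend on the effective length used for FPKM, which is not given in the sources used here.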
